A study of Homo sapiens with 10 samples.

Results

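The globin genes of Meg01, a human megakaryoblastic leukaemia cell line, were followed across the RNA of a polysome gradient after knockdown of ATXN2. The 8 genes were the embryonic HBE1 and HBZ, the fetal HBG1 and HBG2 and the adult HBD, HBB, HBA1 and HBA2, chosen by name among the 20046 genes that the array annotation names. All probes that the platform annotation gives to these symbols were taken, which made 9 of the 47323 probes on the array, 2 for HBA2 and 1 for each other gene. All 9 were above background on at least 2 of the 10 arrays, the filter for testing, and 7 were above background on every array.

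The knockdown cells carried sh95, a lentiviral short hairpin against ATXN2, and the control cells carried shc002, a control hairpin, both transduced at a multiplicity of infection of 10, sorted by GFP and lysed 48 hours later. Polysomal RNA, the pool of fractions 9 to 17 of a 7% to 46% sucrose gradient (the series text counts 8 fractions), was hybridised on 3 knockdown and 3 control arrays numbered P2, P4 and P5. Subpolysomal RNA, the pool of fractions 1 to 8, was hybridised on 2 knockdown and 2 control arrays numbered P1 and P3. The labels describe 3 independent experiments without tying the P numbers to them. All groups are 1 leukaemia line with 1 hairpin for each condition. A knockdown and a control array share each P number, and no number occurs in both pools.

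Haemoglobin is a tetramer of a pair of alpha-type and a pair of beta-type chains. The beta-type genes HBE1, HBG2, HBG1, HBD and HBB neighbour each other on chromosome 11, and the alpha-type genes HBZ, HBA2 and HBA1 on chromosome 16, in RefSeq's GRCh38.p14 annotation. Red cell precursors use the embryonic genes first, then the fetal and then the adult ones, a sequence known as haemoglobin switching. Megakaryocytes share a progenitor with red cells, and globin transcripts are known in leukaemia lines of this lineage. HBG1 and HBG2, like HBA1 and HBA2, are near-identical copies, so signal on a probe named for one copy may come from the other.

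ATXN2, the gene that sh95 targets and the source of a protein that binds RNA, read lower with knockdown in 5 of 5 pairs. Its differences were -0.32, -0.50, -1.20, -2.09 and -1.04 (log2, P1 to P5). The mean of the polysomal and the subpolysomal estimate, each pool weighted equally, was -0.99 (SE 0.30), which did not pass the limma threshold over all probes. The cell type named by the labels was only partly visible in defining markers. Of the 16 megakaryocyte markers analysed here 13 were above background on at least 2 arrays, but the platelet proteins PF4 and THBS1 were above it on none and VWF on 1. Of the 7 erythroid markers analysed here 6 were above background, while SLC4A1, the red cell anion exchanger, reached it on 1 array. Among markers of other cells, 6 of 10 of monocytes and granulocytes, 7 of 8 of lymphocytes and 5 of 6 of mast cells and basophils were above background. Across the 20046 named genes, 13902 had a probe that passed this filter, so these counts alone do not mark a cell type. The lymphoid markers lay close to background. CD79A had the highest median of them, log2 7.68, and CD3D and CD3E were above background on 2 arrays each. The summed megakaryocyte markers were higher in the polysomal pool, at log2 13.26 to 13.53 in knockdown polysomal, 13.10 to 13.45 in control polysomal, 12.55 to 12.93 in knockdown subpolysomal and 12.48 to 12.87 in control subpolysomal RNA. Such a sum weighs the brightest markers most, and NFE2, with the highest mean, was at 1.02 (log2) for polysomal minus subpolysomal. By gene, 8 of 13 were above 0, with a median of 0.16 against 0.006 for all kept probes. The summed erythroid markers were at 12.06 to 12.27 in knockdown polysomal, 11.91 to 12.50 in control polysomal, 11.89 to 12.37 in knockdown subpolysomal and 11.81 to 11.94 in control subpolysomal RNA. Their part in the pool differences below was not tested. In pooled RNA, fewer cells making a transcript and less of it in each cell cannot be told apart.

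The fetal genes were read at the top of the range of every array. HBG1 and HBG2 encode the gamma chains of fetal haemoglobin, which holds oxygen more tightly than the adult form. HBG2 had deposited intensities of 11357 (P2), 16263 (P4) and 11164 (P5) on the knockdown polysomal arrays and 136248, 13482 and 15009 on the control polysomal arrays. In subpolysomal RNA it had 25505 (P1) and 33133 (P3) with knockdown and 13617 and 26699 in control cells. These are linear, arbitrary units, and the background limit of the arrays lay between 196.8 and 199.2.

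HBG1 had 11214, 14968 and 10464 units on the knockdown polysomal arrays and 140375, 13057.5 and 14485 on the control polysomal arrays. The subpolysomal arrays read 22671 and 29213 with knockdown and 12855 and 26882 in control cells. Both gamma probes were far above the limit on all 10 arrays, and control polysomal P2 stood apart from the others. That array held the highest value of the whole table, the HBG1 probe itself. On the other 9 arrays the brightest probe had between 11164 and 38625 units, 1.29 to 1.49 times the 100th brightest probe, against 3.21 times on control polysomal P2. Whether the brightest signals of those 9 arrays were limited by the scanner was not tested.

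Position within the array does not depend on the scale of its intensities, but on most arrays many top ranks span a small gap in intensity. HBG2 ranked 6th, 1st and 1st of the 47323 probes on the knockdown polysomal arrays (P2, P4, P5) and 3rd, 3rd and 2nd on the control polysomal arrays. It ranked 10th and 36th on the knockdown subpolysomal arrays (P1, P3) and 29th and 39th on the control subpolysomal arrays. HBG1 ranked 9th, 6th and 4th with knockdown and 1st, 5th and 3rd in control cells in polysomal RNA, and 55th and 113th with knockdown and 63rd and 32nd in control cells in subpolysomal RNA. Every polysomal array thus placed both gamma probes higher than any subpolysomal array did. Because the brightness of a probe depends on its sequence, ranks are compared here between arrays for the same probe and not between genes.

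**Figure D1:**
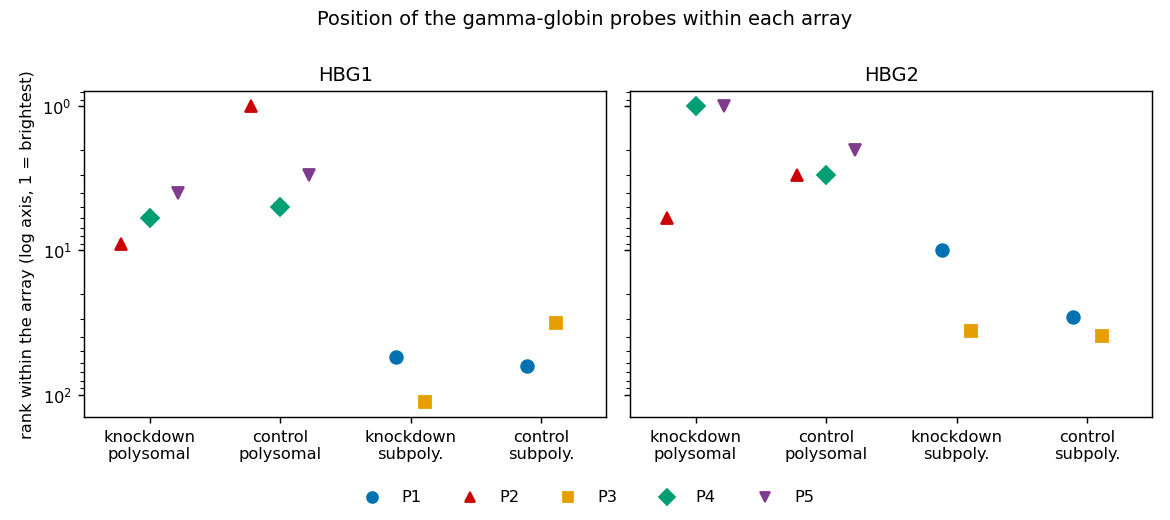
Rank of the HBG1 probe (left) and the HBG2 probe (right) among the 47323 probes of each array, on a log axis with the brightest probe (rank 1) at the top, in the 4 groups, with 1 point for each array and its P number by colour and shape. The 6 polysomal arrays lie between ranks 1 and 9 for HBG1 and 1 and 6 for HBG2, above the 4 subpolysomal arrays at ranks 32 to 113 and 10 to 39.

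The embryonic HBE1 was also read on all 10 arrays. Its epsilon chain belongs to the first haemoglobins made in the yolk sac. HBE1 had 1048, 1552 and 1277 units on the knockdown polysomal arrays (P2, P4, P5) and 6890.1, 1022 and 1908 on the control polysomal arrays. In subpolysomal RNA it had 773 and 1152 units with knockdown (P1, P3) and 399.8 and 1037 in control cells. The control polysomal P2 array was again the highest, and the lowest was control subpolysomal P1, 17.2 times below it.

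The adult beta-cluster genes were measured near the floor on most arrays. HBB encodes the beta chain of the main adult haemoglobin. It had 391, 205 and 972 units on the knockdown polysomal arrays and 2815, 203 and 357 on the control polysomal arrays, while the subpolysomal arrays read 450.3 and 286 with knockdown and 227 and 291 in control cells. On both P4 arrays HBB lay within 10 units of the background limit, and on control polysomal P2 it was at its highest. HBD, the delta chain of the minor adult haemoglobin, spanned 228 to 283 units on the knockdown polysomal, 218 to 492 on the control polysomal, 272 to 331 on the knockdown subpolysomal and 294 to 309 on the control subpolysomal arrays. The extremes of HBD were 2.26-fold apart and those of HBB 13.9-fold, on a scale where the background was not subtracted and folds near the limit are compressed.

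In the alpha cluster the adult genes were measured and the embryonic gene barely. The brighter HBA2 probe had 403, 2859 and 5437 units on the knockdown polysomal arrays (P2, P4, P5) and 2703, 1972 and 9303 on the control polysomal arrays. On the subpolysomal arrays it had 1549.8 and 8394 with knockdown (P1, P3) and 1247 and 8844 in control cells. HBA2, which with HBA1 makes the alpha chain of fetal and adult haemoglobin, thus differed 23.1-fold between arrays, with P5 and P3 high in both hairpin conditions. The dimmer HBA2 probe spanned 214 to 2625 units and was also highest on control polysomal P5. The 2 probes had a Pearson correlation of 0.88 over the 10 arrays (log2, quantile-normalized), a description only, since those points share libraries and P numbers.

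HBA1 had 191, 852 and 377 units on the knockdown polysomal arrays and 258, 671 and 2407 on the control polysomal arrays. Its subpolysomal values were 253 and 2332 with knockdown and 205 and 1889 in control cells. HBA1 was not above background on knockdown polysomal P2, the array on which both HBA2 probes were also at their lowest. HBZ, the embryonic zeta chain, was above background on 4 arrays (both P5 arrays, control polysomal P2 and knockdown subpolysomal P3) and was at most 284 units. On the control subpolysomal arrays HBZ was not above background, at 193 and 197 units. In control polysomal RNA it was above background on 2 of 3 arrays, but P4, at 178 units, lay below both subpolysomal values. Polysomal minus subpolysomal in control cells was 0.15 (SE 0.22, log2), with an adjusted p of 0.999 in the limma fit described below. Its confidence interval of -0.38 to 0.68 held differences either way.

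**Figure D2:**
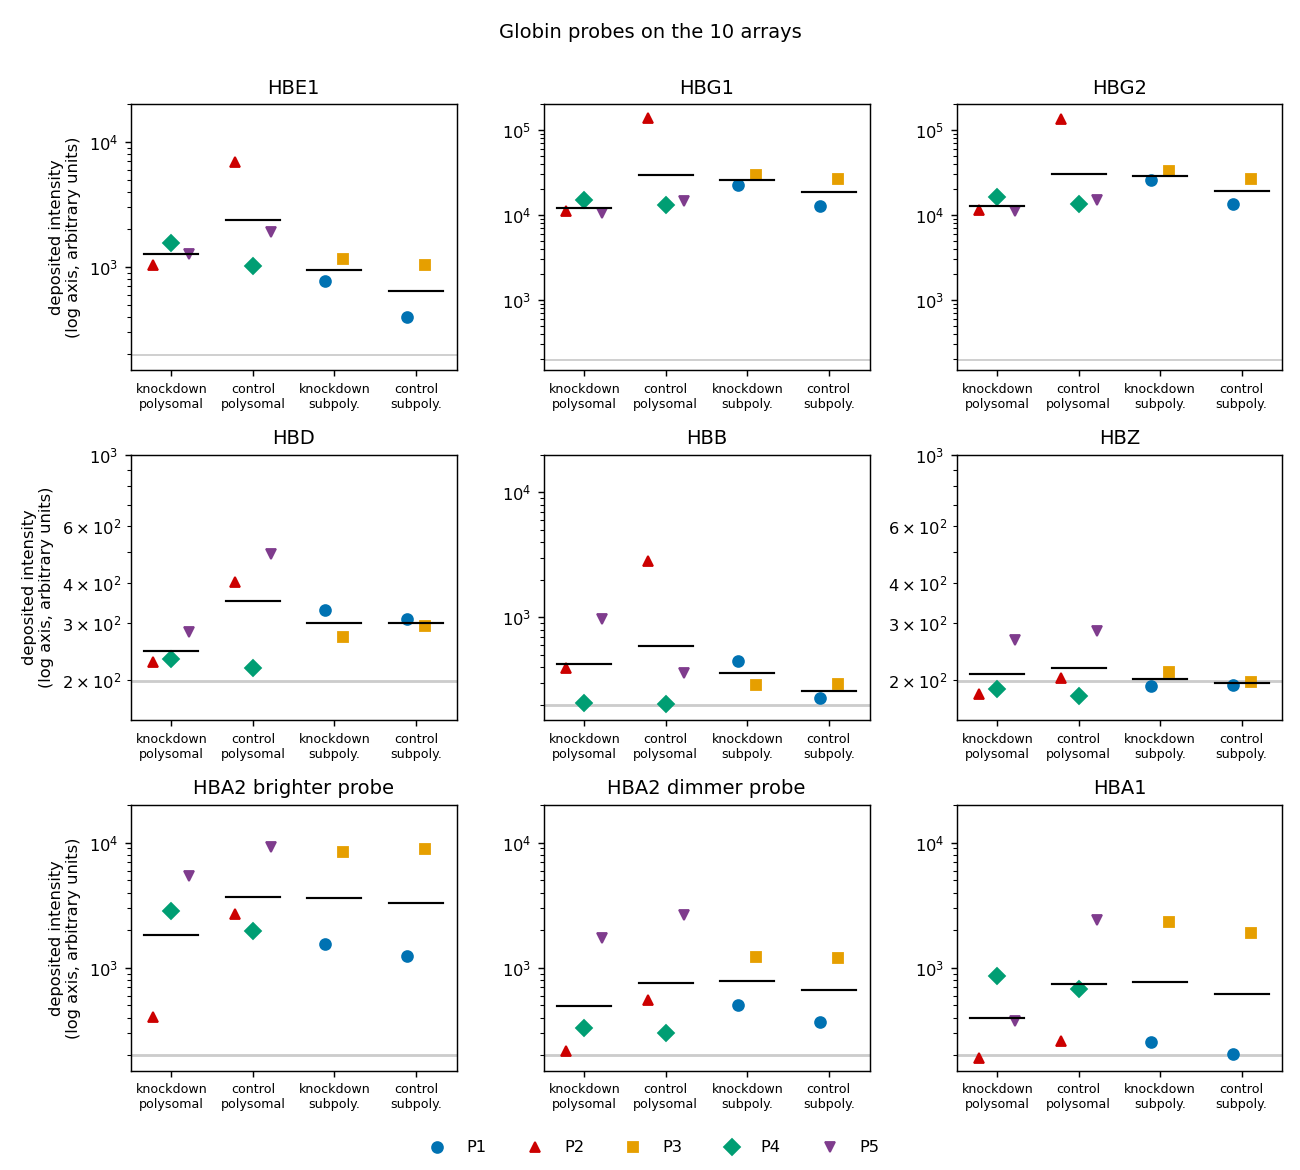
Deposited intensity of the 9 globin probes (log axes, arbitrary linear units) in the 4 groups, with 1 point for each array, its P number by colour and shape, a black line at the group's geometric mean, and the grey band marking the range of background limits over the arrays. The HBG1 and HBG2 probes lie far above the band on all 10 arrays, HBZ lies about it, and control polysomal P2 (red triangle) is the highest point for HBE1, HBG1, HBG2 and HBB.

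All globin probes varied more over the arrays than the median probe. After log2 transformation and quantile normalization, which gives every array the same distribution, 9 of 9 globin probes had an SD over the 10 arrays above the median of the 26904 probes kept (0.12). The SD was above 1 for HBB, HBA1 and both HBA2 probes, 4 of 9, against 3.24% of all kept probes. HBA1 and HBA2 are near-identical copies, so these are not 4 separate observations. Of the 26904 kept probes 11503 were above background on every array, and differences near background are compressed. No comparison at matched brightness was made. The gamma probes, pinned at the top of that distribution, had SDs of 0.20 for HBG1 and 0.13 for HBG2 on this scale, although their deposited intensities spanned 13.4-fold and 12.2-fold.

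The polysomal against subpolysomal comparison asks which mRNAs are relatively richer among those carrying many ribosomes. With both hairpins averaged, HBG1 was higher in polysomal RNA by 0.34 (SE 0.06, log2), and it was the 1 globin probe of 9 to pass the test (limma, adjusted p = 0.0448, n = 6 against 4 arrays). Of all 26904 probes 1.15% passed in this comparison, 73 higher and 236 lower. HBG2 was 0.23 (SE 0.04) above its subpolysomal level with an adjusted p of 0.0732 in the limma fit. The arrays come from 3 polysomal and 2 subpolysomal P numbers, and arrays of 1 number deviated together, so they are not 6 and 4 independent samples. With arrays averaged by P number first, 0 of 9 globin probes and 1 of all 26904 passed in limma. On this log2 scale HBG1 averaged 14.36 ± 0.03 in knockdown polysomal and 14.42 ± 0.05 in control polysomal RNA (SD, n = 3 each), against 13.97 ± 0.17 in knockdown subpolysomal and 14.12 ± 0.08 in control subpolysomal RNA (n = 2 each). HBG2 averaged 14.44 ± 0.07 and 14.42 ± 0.02 in knockdown and control polysomal RNA, against 14.24 ± 0.11 and 14.17 ± 0.03 in knockdown and control subpolysomal RNA.

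On the quantile-normalized scale the 6 polysomal arrays all lay above the 4 subpolysomal arrays for the 2 gamma probes and no other globin probe. Of all kept probes 2.26% had this pattern on that scale, with 3.18% the other way round. The scale follows the ranks within each array, so this is not a separate observation from the ranks above. In the deposited intensities neither gamma probe had the pattern. No test of the ranks is given, since 5 P numbers allow 10 relabellings and so no p below 0.1. The sign of the gamma difference depended on the scale. In the intensities as deposited, with no further normalization, polysomal minus subpolysomal was -0.21 (SE 0.70, log2) for HBG1 and -0.26 (SE 0.68) for HBG2, neither past the threshold. The 100th brightest probe had 8395 to 10924 units on the knockdown polysomal and 9886 to 43748 on the control polysomal arrays, against 20727 to 30005 on the knockdown subpolysomal and 12291.5 to 23971.5 on the control subpolysomal arrays. The HBG1 call was lost under all other settings tried but 1, the omission of knockdown subpolysomal P1 (0.41, limma adjusted p = 0.0378), and with P2 left out it was 0.34 with an adjusted p of 0.129.

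HBE1 had the highest estimated pool difference of the 9 probes, 1.06 (SE 0.43, 95% confidence interval 0.05 to 2.06), which did not pass (limma, adjusted p = 0.415). It was 1.63 (SE 0.60) in control cells and 0.49 (SE 0.60) in knockdown cells, and the control value included the high P2 array. HBB differed by 0.60 (SE 0.70), HBZ by 0.10 (SE 0.16), HBD by -0.05 (SE 0.22), the brighter HBA2 probe by 0.04 (SE 1.06), the dimmer by -0.22 (SE 0.88) and HBA1 by -0.26 (SE 1.01). For the alpha genes the interval was wide, -2.47 to 2.54 for the brighter HBA2 probe and -2.64 to 2.12 for HBA1, so that several-fold differences either way were within it. Separately by hairpin, 0 of 9 globin probes passed in knockdown cells (0.16% of all probes) and 0 of 9 in control cells (0.119%). At an unadjusted p under 0.05 in the same limma fit there were 2 in knockdown cells, HBG1 and HBG2, and 3 in control cells, those and HBE1, against 7.66% of all kept probes in knockdown cells and 5.63% in control cells.

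**Figure D3:**
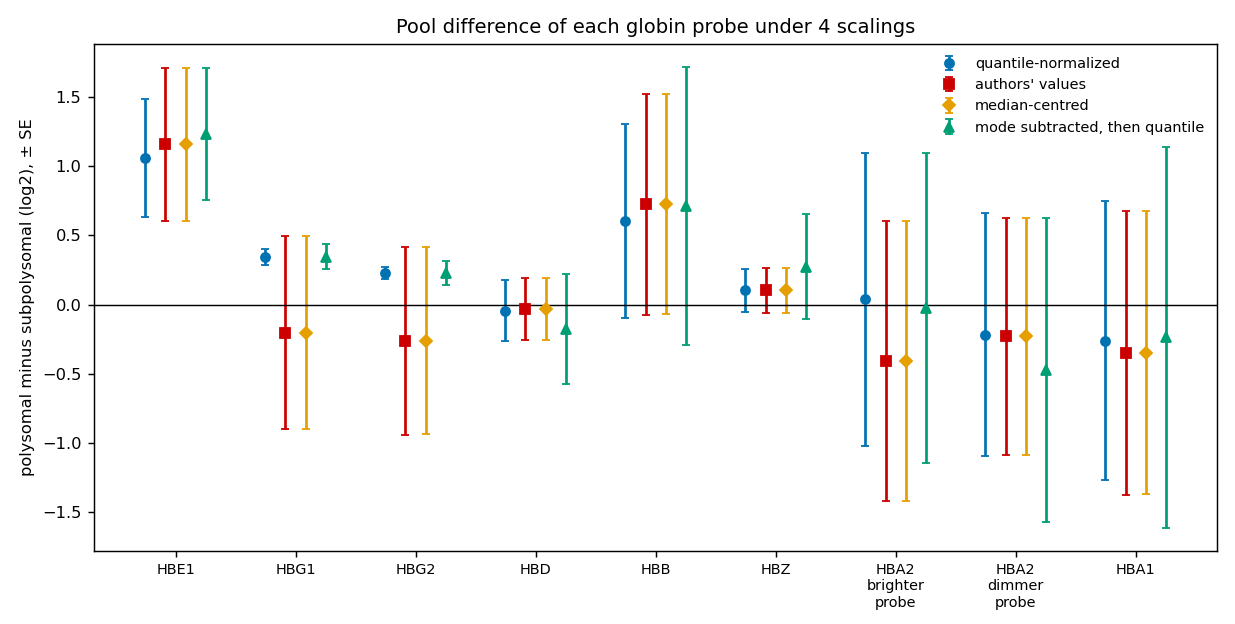
Difference of each globin probe between polysomal and subpolysomal RNA (log2, vertical axis), averaged over both hairpins, under 4 scalings shown by colour and shape, with bars of ± 1 SE from limma (10 arrays). HBG1 and HBG2 lie above 0 with small errors under both quantile-normalized scales and below 0 with wide errors in the authors' values and after median centring, while HBE1 stays above 0 under all 4.

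The knockdown comparisons ask whether a loss of ATXN2 shifted globin mRNA within a pool. Their SE and intervals come from the 4 group means without pairing by P number, so they include the spread between P numbers. With P number as a block in limma, 0 of 9 globin probes were at an unadjusted p under 0.05 in either pool. In polysomal RNA 0 of 9 globin probes passed (limma, adjusted p = 1.00 for each), as did 0 of all 26904 probes (0%), and 428 of them, with 0 of 9 globins, had an unadjusted p under 0.05. HBG2 differed by 0.02 (SE 0.06, 95% confidence interval -0.11 to 0.15) and HBG1 by -0.07 (SE 0.07, -0.24 to 0.10), on the scale that holds the top of every array alike. In the deposited values the same differences were -1.25 (SE 0.86) for HBG2, of the opposite sign, and -1.31 (SE 0.88) for HBG1, and these did not pass either. HBE1 differed by -0.61 (SE 0.54), HBD by -0.49 (SE 0.28), HBB by -0.26 (SE 0.89) and HBZ by -0.05 (SE 0.20). The alpha genes differed by -0.73 (SE 1.34) and -0.55 (SE 1.12) for HBA2 and by -0.94 (SE 1.27) for HBA1. In all, 1 of 9 probes was above 0 and the median was -0.49, against 0.005 for all kept probes. Without the P2 pair 5 of 9 were above 0 and the median was 0.001, and leaving out 1 array gave 0 to 4 of 9 and medians of -0.92 (without control polysomal P4) to -0.05 (without knockdown polysomal P2).

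In subpolysomal RNA 0 of 9 globin probes passed the limma test and 0 of all 26904 (0%), with 244 of all probes and 0 of 9 globins at an unadjusted p under 0.05. Estimates for 7 of 9 lay above 0, with a median of 0.07 against 0.001 for all probes. Without control subpolysomal P1 these became 4 of 9 and -0.16, without control subpolysomal P3 7 of 9 and 0.67, without knockdown subpolysomal P1 6 of 9 and 0.15, without knockdown subpolysomal P3 4 of 9 and -0.02, and in the deposited values 8 of 9 and 0.30. HBE1 differed by 0.53 (SE 0.66), HBB by 0.50 (SE 1.09), HBA1 by 0.27 (SE 1.56), HBG2 by 0.07 (SE 0.07) and HBG1 by -0.15 (SE 0.09). These SE again ignore the pairing, and for HBA1 the P1 and P3 pairs were at 0.32 and 0.22. The change of the pool difference with knockdown, the interaction of hairpin and pool, passed for 0 of 9 probes and 0 of all probes (0%) in limma, with 315 of all probes and 0 of 9 globins at an unadjusted p under 0.05. Its estimate was -1.14 (SE 0.85) for HBE1 and 0.08 (SE 0.11) for HBG1. Averaged over both pools the knockdown difference likewise passed for 0 of 9 and for 0% of all probes, with 236 of all probes and 0 of 9 globins at that unadjusted level, and the interval of HBG2 was -0.06 to 0.15.

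Pair by pair, the knockdown differences of all 9 globin probes took both signs (log2, knockdown minus control, P1 to P5). HBE1 differed by 0.91, -1.98, 0.14, 0.66 and -0.53. HBB differed by 1.02, -2.30, -0.02, 0.02 and 1.49, and the brighter HBA2 probe by 0.11, -2.21, -0.21, 0.54 and -0.52. HBA1 was within 0.44 of 0 in all pairs but P5, where it was at -2.74, and the other alpha probes in P5 were at -0.52 and -0.49. HBG1 (0.04, -0.16, -0.33, -0.01 and -0.03) and HBG2 (0.13, -0.05, 0.01, 0.06 and 0.03) stayed within 0.33 of 0 in every pair.

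P2 was the pair in which all 9 globin probes were lower with knockdown. The share of all probes that were lower in this pair was not counted. Several of the 9 read near-identical genes, so the count is not read as a result about globins. In deposited intensities, knockdown over control in P2 was 0.0799 for HBG1 and 0.0834 for HBG2, against 0.722 to 1.76 for HBG1 and 0.744 to 1.87 for HBG2 in the other 4 pairs. HBE1 in P2 was at 0.152 of control. The 100th brightest probe had 8953 units on the knockdown array of this pair and 43748 on the control array, and the part of this gap in the ratios was not tested.

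**Figure D4:**
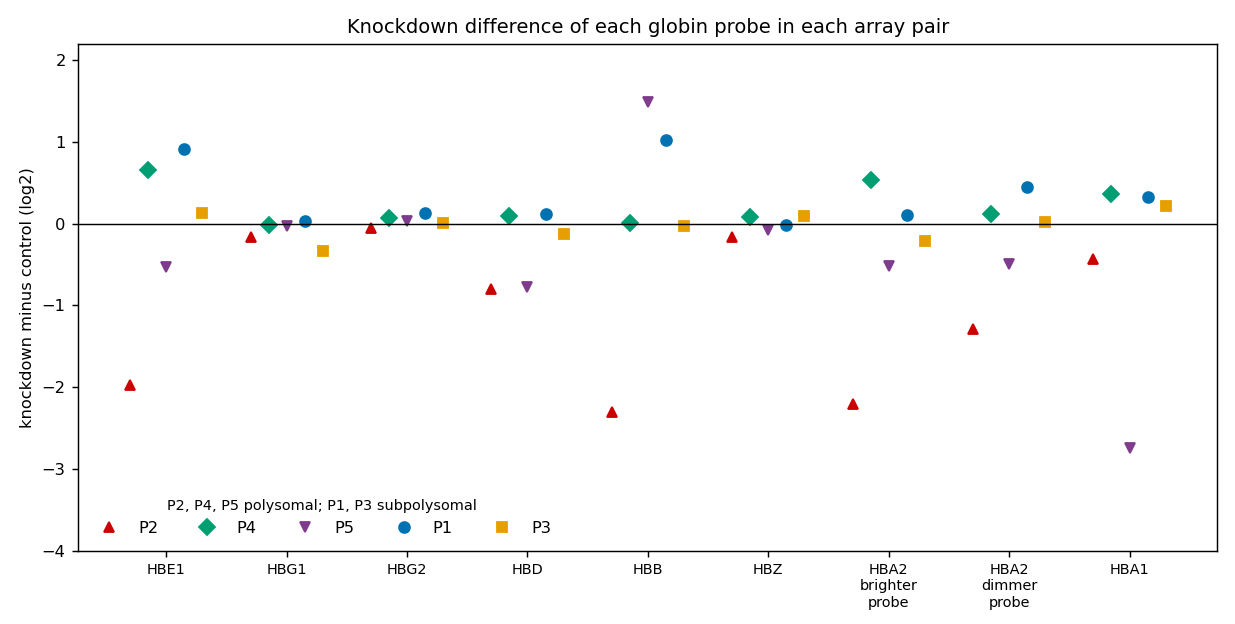
Knockdown minus control (log2, quantile-normalized, vertical axis) of the 9 globin probes in each of the 5 array pairs that share a P number, polysomal pairs P2, P4 and P5 and subpolysomal pairs P1 and P3 by colour and shape. The P2 pair lies below 0 for all 9 probes and reaches -1.98 for HBE1, -2.30 for HBB and -2.21 for the brighter HBA2 probe, while the HBG1 and HBG2 points all lie within 0.33 of 0.

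In the alpha cluster the arrays of different P numbers lay far apart. Averaged over the knockdown and control array of each number, the brighter HBA2 probe read log2 10.52 (P1), 9.70 (P2), 12.44 (P3), 11.48 (P4) and 13.38 (P5). HBA1 read 7.85, 7.80, 10.91, 9.64 and 9.91. P1 and P2 were the low numbers for the HBA1 probe and the brighter HBA2 probe. The dimmer HBA2 probe read 8.79, 8.40, 10.24, 8.31 and 11.17 (P1 to P5), lowest on P4. The HBA1 mean of P5 lay between arrays far apart, 8.54 with knockdown and 11.28 in control cells, and that gap of 2.74 was larger than the difference between P5 and P2. HBA1 was higher on P3 than on P1 by 3.06 within subpolysomal RNA, and on P4 and P5 than on P2 by 1.85 and 2.12 within polysomal RNA. The median size of its knockdown difference over the 5 pairs was 0.36, and that of the brighter HBA2 probe 0.52.

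An F test for any difference between P numbers within a pool, in a limma model with P number and hairpin by pool, was added after the values had been seen. It passed for 3 of 9 globin probes, both HBA2 probes (adjusted p = 0.048 and 0.0177) and HBZ (adjusted p = 0.0261), against 20.6% of all kept probes, and HBA1 had an adjusted p of 0.084. P numbers thus differed for many genes besides the globins. The beta-cluster probes did not pass, with HBB at -2.02 for P4 minus P2 and HBE1 at 0.99 for P3 minus P1. Over the 10 arrays, HBZ had a Pearson correlation of 0.89 with the dimmer HBA2 probe and of 0.37 with HBA1, again as a description over points that share P numbers.

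Factors that act on globin promoters were set out by P number in the same way, and their part in the globin levels was not tested. GATA1, the zinc finger factor of erythroid and megakaryocytic genes, averaged log2 8.82 (P1), 8.72 (P2), 9.80 (P3), 9.68 (P4) and 9.26 (P5). KLF1, the erythroid Krüppel-like factor that drives adult beta-globin, averaged 7.90, 7.99, 8.52, 8.68 and 8.40. Other regulators of the list were lower on P3 than on P1, among them LMO2, at 12.79 on P1 and 10.12 on P3, and TAL1, at 9.85 and 9.18. These examples were chosen after their values were seen. In polysomal RNA LMO2 averaged 11.53 (P2), 9.87 (P4) and 12.01 (P5). TAL1 averaged 9.62, 9.72 and 9.87 there, lowest on P2 as GATA1 and KLF1 were among the polysomal numbers. BCL11A, a repressor of the gamma genes, averaged 8.44, 9.26, 8.04, 8.34 and 8.82, highest on P2.

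**Figure D5:**
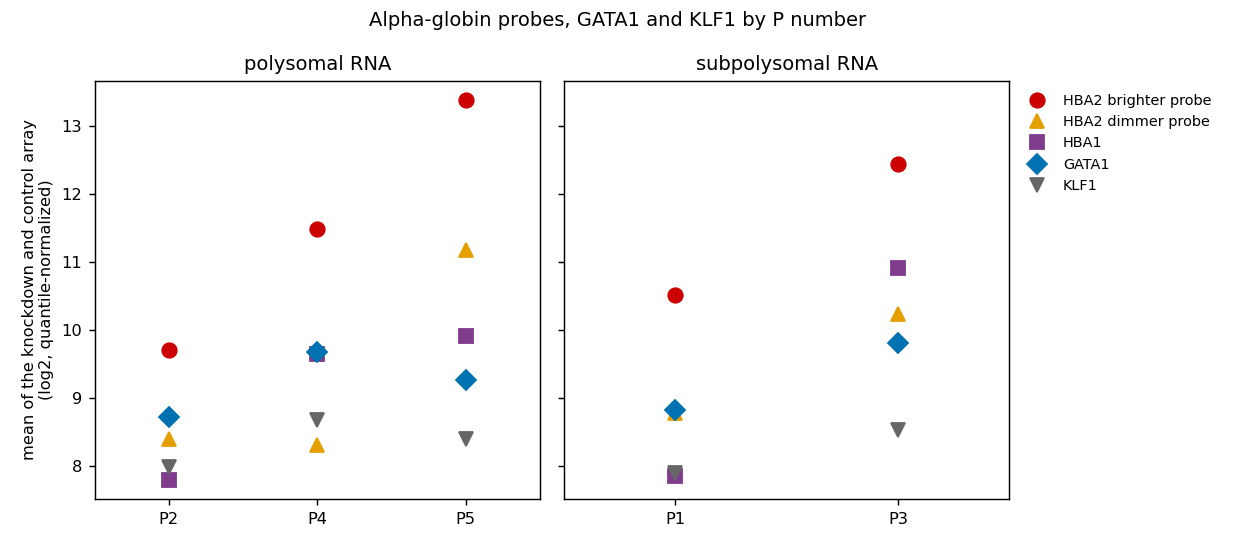
Mean log2 level (quantile-normalized) of the knockdown and control array of each P number, for polysomal RNA (left, P2, P4 and P5) and subpolysomal RNA (right, P1 and P3), for both HBA2 probes, HBA1, GATA1 and KLF1 by colour and shape. The brighter HBA2 probe lies at 9.70 on P2, 11.48 on P4 and 13.38 on P5, and at 10.52 on P1 and 12.44 on P3. The dimmer HBA2 probe lies lowest on P4, at 8.31, and at 8.40 on P2. Heights of different genes are not comparable, since probes differ in brightness.

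Other globins gave a mixed picture. HBBP1, a transcribed pseudogene between the fetal and adult beta-type genes, was above background on all 10 arrays, with 2539, 1894 and 5470.5 units in knockdown polysomal, 13184, 1169 and 4782 in control polysomal, 18093 and 8011 in knockdown subpolysomal and 7928 and 4756 in control subpolysomal RNA. HBQ1, the theta gene at the end of the alpha cluster, had 277, 293 and 744 units in knockdown polysomal, 616, 256 and 717 in control polysomal, 832 and 812 in knockdown subpolysomal and 625 and 748 in control subpolysomal RNA. Their estimates ran opposite to those of HBE1 and HBG1, with polysomal minus subpolysomal at -0.97 (SE 0.68) for HBBP1 and -0.85 (SE 0.38) for HBQ1, neither past the threshold (limma, adjusted p = 0.685 and 0.477). HBM and CYGB were above background on 0 arrays, and NGB and the best of 4 MB probes on 1.

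Of the 36 regulators of globin genes analysed here 33 were above background, and 0 passed in any of the 7 comparisons (limma). At an unadjusted p under 0.05 there were 0 to 7 of 33, the 7 in the pool difference over both hairpins, where 11.2% of all kept probes were at that level. The 3 with the highest means were NFE2, a partner of small Maf proteins at globin enhancers, at 1.02 (SE 0.23, adjusted p = 0.111) for polysomal minus subpolysomal, the histone deacetylase HDAC2 at 0.38, and EIF2AK1, the haem-regulated translation kinase, at -0.26. The pool difference of the list had a median of 0.15 against 0.006 for all probes, 22 of 33 being above 0. BCL11A was at 0.57 (SE 0.27), ZBTB7A, also a repressor of the gamma genes, at -0.20 (SE 0.08), KLF1 at 0.15 (SE 0.27) and GATA1 at -0.09 (SE 0.35). For knockdown in polysomal RNA the list's median was 0.05 against 0.005, with GATA1 at 0.34, BCL11A at -0.21, ZBTB7A at 0.05 and KLF1 at -0.02. SOX6, which acts with BCL11A, was above background on 0 arrays, and LIN28B, a fetal-stage RNA-binding protein, on 1.

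Of the 27 genes of red cell structure and haemoglobin assembly analysed here 24 were above background, and 0 passed in any comparison (limma). At an unadjusted p under 0.05 there were 0 to 4 of 24, the 4 in the pool difference over both hairpins (11.2% of all kept probes) and in that of knockdown cells (7.66%). Carbonic anhydrase CA2 was at 0.79 for polysomal minus subpolysomal, the transferrin receptor TFRC at 0.66 and UROD, of haem synthesis, at 0.62, the 3 with the highest means. ALAS2, the first enzyme of erythroid haem synthesis, was at -0.69 (SE 0.38), and AHSP, the chaperone of free alpha chains, at 0.06 (SE 0.08), close to background and above it on 8 arrays. Knockdown in polysomal RNA gave 0.15 for ALAS2 and -0.03 for AHSP. The list's median was 0.09 for the pool difference, with 16 of 24 above 0, and 0.01 for knockdown in polysomal RNA, with 13 of 24.

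The genes whose levels followed HBG2 most closely over the 10 arrays, of 13901 others with 1 probe each, were SCARB2, C12orf60, PHRF1, RPS16 and ARHGEF18, with Pearson correlations of 0.921 to 0.927. For the brighter HBA2 probe they were ANXA8, PDLIM7, PTGER1, MARCKSL1 and FAM110A, at 0.916 to 0.932. None of these is an erythroid gene of the lists above. With 10 arrays that share pools and P numbers, the correlations describe these arrays only.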

How the data were processed

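Expression was measured on Illumina beadchips in 10 arrays of Meg01 RNA, grouped by hairpin and gradient pool from the sample titles. The authors deposited processed intensity values on a linear scale, with array medians of 193 to 194. The sources used here do not state how they were corrected and normalized. R 2.15 appears in the submitters' processing notes. The 20 columns of a table of unnormalized signals have headings that match no sample label and were not used here.

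The log2 intensities were put through quantile normalization, so a difference is relative to the other probes and the probes at the top of every array are held nearly alike. The plan expected scanner signals that still needed this step, and the deposited values may already have had a similar one. Background was taken, array by array, as the part of the log2 distribution below the mode reflected about it, and a probe past the 0.05 upper tail was above it. The filter asked for 2 such arrays and kept 26904 probes. A limma model with 4 group means (limma 3.58.1 in R 4.3.3, lmFit then eBayes, all 10 arrays, tested on simulated data) gave log2 differences, SE and two-sided p-values, Benjamini-Hochberg adjusted over all kept probes and called under 0.05. The simulated arrays were independent of each other, so that test did not cover arrays that share a P number. The number of arrays limits the precision. Nothing in the labels says whether the arrays of a group came from separate cultures beyond the 3 experiments, so p-values measure the spread between these arrays.

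Gene symbols were those of the platform annotation, brought up to date through RefSeq (GRCh38.p14). One symbol was found for 30113 probes. All globin probes were named. From the lists of regulators and red cell genes, those past the threshold, the 3 with the highest mean and a fixed few (AHSP, ALAS2, GATA1, KLF1, BCL11A, ZBTB7A, the other globins) were named, and SOX6 and LIN28B were added after their values were seen. A gene stood by its brightest probe. The members and the lists were chosen with earlier results of these data known.

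Knockdown and control arrays of 1 P number deviated from their group means together, with correlations of 0.917 (P1), 0.763 (P2), 0.917 (P3), 0.769 (P4) and 0.467 (P5), so the numbers were taken to pair the arrays. With 2 pairs the P1 and P3 values mirror each other. Alternatives changed the normalization, background, filter, variance prior, arrays in the fit, pairing, probe and arrays left out. Omitting the P2 pair and the F test of P numbers were chosen after seeing the data.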

Additional observations from a re-analysis of the deposited data

How the results depend on the processing

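The HBG1 pool call was the 1 globin call, and 0 globin probes were called for the pool difference in the deposited values, after median centring or mode subtraction, with no filter on dim probes or one on every array, with a trended and robust prior, with the replicate block (arrays of a P number averaged first, HBG1 adjusted p = 0.313 in limma) or without the P2 pair. Leaving out 1 array gave 0 to 1. The replicate block changed no other globin call: 0 of 9 probes were called for knockdown in either pool. All kept probes called for the pool difference numbered 309, against 168 without the P2 pair, 115 with the trended prior and 1 with the block, and 23.6%, 42.3% and 0.87% of calls were higher in polysomal RNA in the first 3. Leaving out 1 array gave 110 to 287 for the pool difference, 2 to 38 in knockdown cells and 1 to 12 in control cells. In knockdown cells 43 became 24 in the deposited values, 23 after centring, 6 without P2 and 0 with the trended prior or only the arrays compared. In control cells 32 became 17 with no filter and 15 in a block fit that modelled arrays of 1 P number as correlated. The count was 4 after mode subtraction or the filter on every array and 1 without P2. It was 0 with the trended prior or only the arrays compared.

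Sign changes concerned estimates that did not pass, besides HBG1. The pool difference became -0.21 in the deposited values and -0.20 after centring for HBG1, -0.26 under both for HBG2, and -0.41 under both, -0.03 after mode subtraction and -0.090 as a mean of probes for the brighter HBA2 probe. Without P2 it was 0.23 for the dimmer HBA2 probe and 0.40 for HBA1. Knockdown in polysomal RNA gave HBG2 -1.25 in the deposited values and after centring, and, without P2, HBE1 0.066, HBB 0.75, HBZ 0.0012 and HBA2 0.0098. Knockdown in subpolysomal RNA gave HBG1 0.47 under both, HBD -0.0071 in the deposited values, -0.0089 after centring and -0.013 after mode subtraction, and HBA2 0.12 under both and 0.094 as a mean of probes. The cause of these changes was not tested.

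Leaving out 1 array moved the pool difference over -0.16 to 0.12 for HBD, -0.48 to 0.68 and -0.69 to 0.20 for HBA2 (brighter, dimmer) and -1.04 to 0.52 for HBA1. Knockdown in polysomal RNA moved over -0.0028 to 0.055 for HBG2, -0.92 to 0.67 for HBB, -0.23 to 0.13 for HBZ, and -1.71 to 0.55 and -1.50 to 0.37 for HBA2. In subpolysomal RNA it moved over -0.16 to 1.21 for HBE1, -0.011 to 0.15 for HBG2, -0.17 to 0.17 for HBD, -0.028 to 0.10 for HBZ, -1.09 to 0.99 and -0.59 to 1.07 for HBA2 and -1.29 to 1.83 for HBA1. A lone array left in a group is taken to vary like the other groups. HBZ, HBB and HBD lay too near background on most arrays for small differences to be measured.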
